A study of Mus musculus with 8 samples.

Results

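Itsn1, Synj1, Vps26c, Tmem50b, Tiam1 and C2cd2 are the 6 genes of the duplicated stretch of mouse chromosome 16 that were listed by name for a role in endocytosis, membrane trafficking or signalling at the membrane. All 6 were among the 54838 genes counted, and all 6 passed the filter on low counts, which left 19358 genes, 127 of them in the duplicated segment. They were chosen by name and position, not by their values. The tissue was the submandibular gland, a major salivary gland, of male mice, with the surrounding connective and fat tissue removed. The 4 Dp16 libraries came from B6.129S7-Dp(16Lipi-Zbtb21)1Yey/J mice, labelled as transgenic, a model of Down syndrome in which a second copy of the segment between Lipi and Zbtb21 sits on 1 chromosome 16, so that its genes are present in 3 copies. The 4 WT libraries came from C57BL/6J mice with 2 copies. Both strains were bought from the Jackson Laboratory, and the labels give C57BL/6J as the strain of every sample and no age. The duplication is present in every cell, and all genes of the segment are carried together, so the 6 genes were not varied apart from the other triplicated genes.

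Endocytosis brings plasma membrane and surface proteins into the cell, often in clathrin-coated pits. Intersectins are scaffolds that gather coat, membrane-bending and actin proteins at the pit, and synaptojanins are phosphatases that strip phosphates from the inositol lipids of the fresh vesicle so that the coat can come off. Cargo then either goes on to the lysosome or is returned to the surface by endosomal sorting complexes such as retromer and Retriever. In salivary gland cells, where granule fusion adds membrane to the apical surface, endocytosis takes membrane back in. Of the 6 products, intersectin 1 (Itsn1) and synaptojanin 1 (Synj1) work at the clathrin-coated pit. Vps26c is a subunit of Retriever. Tmem50b is a small membrane protein of the secretory pathway whose work is less well known. Tiam1 activates the small GTPase Rac and so acts on actin and cell contacts. C2cd2 has a lipid-binding C2 domain, and its relative C2cd2l moves phosphatidylinositol between the endoplasmic reticulum and the plasma membrane.

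The start regions of these genes differed in base composition. RefSeq lists 8 start regions for the 6 genes on GRCm38.p6, each covering 250 bases before and 50 bases after a transcript start. Those of 4 genes are shown because they span the range from the steadiest response (Vps26c) to the most variable (Tiam1) and include the smallest fold change (Tmem50b). Each is written on the minus strand, 5′ to 3′. Capitals mark copies, on either strand, of the GC box (GGGCGG), the CCAAT box (CCAAT) and the core of ETS factor sites (CCGGAAG). The TATA box (TATAAA) was also searched. No copies overlapped each other.
Synj1, the second listed start, chr16:91011046-91011345: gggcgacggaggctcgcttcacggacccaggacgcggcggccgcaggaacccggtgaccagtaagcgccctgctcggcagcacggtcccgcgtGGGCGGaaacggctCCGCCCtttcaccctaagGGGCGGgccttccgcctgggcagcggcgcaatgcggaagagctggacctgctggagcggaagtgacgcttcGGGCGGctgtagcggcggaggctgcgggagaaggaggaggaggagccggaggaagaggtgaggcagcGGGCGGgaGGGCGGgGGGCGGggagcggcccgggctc
Vps26c, chr16:94526580-94526879: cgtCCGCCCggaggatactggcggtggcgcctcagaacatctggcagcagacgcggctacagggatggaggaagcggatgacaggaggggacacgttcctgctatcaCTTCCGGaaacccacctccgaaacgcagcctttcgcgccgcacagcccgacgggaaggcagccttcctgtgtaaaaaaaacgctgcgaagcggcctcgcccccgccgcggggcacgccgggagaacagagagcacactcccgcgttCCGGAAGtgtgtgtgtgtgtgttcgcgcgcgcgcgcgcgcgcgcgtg
Tmem50b, chr16:91597631-91597930: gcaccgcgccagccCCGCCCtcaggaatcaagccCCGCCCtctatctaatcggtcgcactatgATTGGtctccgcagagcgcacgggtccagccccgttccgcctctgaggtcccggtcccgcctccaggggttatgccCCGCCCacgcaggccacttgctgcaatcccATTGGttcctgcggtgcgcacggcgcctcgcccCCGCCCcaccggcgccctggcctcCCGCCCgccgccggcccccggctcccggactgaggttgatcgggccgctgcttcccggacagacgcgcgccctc
Tiam1, the first listed start, chr16:89974650-89974949: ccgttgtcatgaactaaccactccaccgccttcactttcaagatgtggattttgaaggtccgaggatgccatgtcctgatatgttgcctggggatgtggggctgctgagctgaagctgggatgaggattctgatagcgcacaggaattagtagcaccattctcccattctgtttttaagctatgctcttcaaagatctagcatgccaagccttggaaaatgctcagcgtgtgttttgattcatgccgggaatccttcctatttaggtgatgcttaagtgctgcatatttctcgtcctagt

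The Synj1 region shown held 7 GC boxes, 36 CpG dinucleotides and 74.0% G and C, while the first listed start region of Synj1 held none of the 4 motifs, 30 CpG and 71.3% G and C. The Vps26c region held 1 GC box, 2 ETS cores, 40 CpG and 66.7% G and C. The Tmem50b region held 5 GC boxes, 2 CCAAT boxes, 35 CpG and 73.0% G and C. Neither a GC box nor any of the other 3 motifs was found in the Tiam1 region shown, which had 7 CpG and 47.0% G and C, and its other start region had 1 CCAAT box, 9 CpG and 50.7% G and C. Both Tiam1 regions, and the region of C2cd2, lie inside their gene as GENCODE annotates it, downstream of its outermost start. Among 32851 start regions of the mouse genome the median was 7 CpG and 52.7% G and C, so the Tiam1 regions lay near the median and the others above it. Itsn1 (61.7% G and C, 5 GC boxes) and C2cd2 (64.3%, 3 GC boxes) were also above it. Counted by region, a GC box was present in 5 of the 8 start regions of these genes and in 35.7% of all start regions. The CCAAT box was present in 3 of 8 and in 37.4% of all, and the ETS core in 1 of 8 and in 8.86% of all. A TATA box was found in 0 of 8, against 13.6% of all start regions. These matches describe the letters of the windows and say nothing about which factors bind there.

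Depth was similar in the 2 groups, with 90790542 to 111805185 reads in genes per Dp16 library and 97847453 to 115729892 per WT library. Each of the 6 genes was counted with at least 1370 reads in every library and with 7011 at most. Reads that overlapped no counted feature made up 18.43% to 20.79% of all reads in Dp16 and 13.82% to 15.86% in WT. The gland's own markers were present: all 8 acinar and all 6 granular duct markers were detected, with summed levels of 1686 to 2508 CPM (counts scaled to library size) in Dp16 and 1599 to 2451 CPM in WT for acinar cells, and of 39498 to 88216 CPM in Dp16 and 70393 to 121335 CPM in WT for granular ducts. Within the acinar list, 1 of 7 tested markers had a log2 fold change above 0, the median was -0.66 and edgeR called 0, with 3 at an unadjusted p under 0.05. The acinar marker that was not tested, Smr3a, was barely detected, at a mean of 0.501 CPM in Dp16 and 0.0180 CPM in WT. The acinar sum came mostly from Slc12a2 and Lpo, while the acinar transcription factor gene Bhlha15 averaged 124 CPM in Dp16 and 221 CPM in WT (log2 fold change -0.83, edgeR adjusted p = 0.0589). Of the 6 granular duct markers 0 had a log2 fold change above 0, the median was -0.52, and edgeR called 1, Klk1, lower (-0.70, adjusted p = 0.0358). The part of these cells in the values of the 6 genes was not tested. All 10 lymphocyte markers were detected and all had a positive log2 fold change, though edgeR called only Klrd1 among them. Their summed level was 87.3, 48.4, 118 and 73.5 CPM in Dp16 replicates 1 to 4, and 38.6, 38.2, 38.3 and 30.3 CPM in WT replicates 1 to 4. Most of this sum came from Ptprc, a gene of white blood cells in general, which averaged 63.8 CPM in Dp16 and 31.2 CPM in WT. The next highest Dp16 mean in the list was that of Cd4, 2.77 CPM, so the order of the libraries by this sum is largely that of Ptprc. The summed lymphocyte markers are therefore not specific to lymphocytes, here or where they are used below. The 7 macrophage markers summed to 264, 233, 394 and 289.6 CPM in Dp16 replicates 1 to 4 and to 248 to 297 CPM in WT. Of them, 6 had a positive log2 fold change and edgeR called 0. Endothelial markers summed to 47.0 to 51.0 CPM in Dp16 and to 35.7 to 44.6 CPM in WT, with 5 of 6 positive and 0 of 6 called. In RNA from a whole gland, fewer cells of a type and less RNA per cell cannot be told apart. Nothing in the labels says that the libraries of a group came from separate animals, so the p-values measure the spread between these libraries, which may be technical.

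The question put to the 6 genes was whether they were expressed above the WT level in Dp16 glands, and whether the difference departed from 1.5, the ratio of 3 copies to 2. The log2 fold change was above 0 for all 6, and its median was 0.55, against 0.59 over the 88 protein-coding genes of the segment tested and 0.0056 over the 19231 genes outside it. Vps26c and Synj1 rose by edgeR's quasi-likelihood test at an adjusted p under 0.05, and 0 of 6 fell. Over all genes tested 0.470% were called higher and 0.155% lower, and in the segment 29.1% were called higher. The unadjusted edgeR p was under 0.05 for 6 of 6, against 12.7% of all genes tested that were higher with such a p. In 4 of the 6 genes every Dp16 library lay above every WT library, which held for 7.11% of all genes and 63.8% of segment genes. The counts of edgeR calls and of groups without overlap were near the shares in the segment and show nothing particular to the 6 genes within it. For the unadjusted p no share within the segment was taken. Most of the 88 protein-coding genes of the segment, however, had a confidence interval for the log2 fold change wholly above 0. The count of 6 of 6 therefore also shows nothing particular to the 6 genes within the segment. Of the 24 values in Dp16 libraries, 23 lay above the WT mean of the gene. These values come from the same 4 libraries for each gene, and no share over other genes was taken, so the count is a description only.

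**Figure D1:**
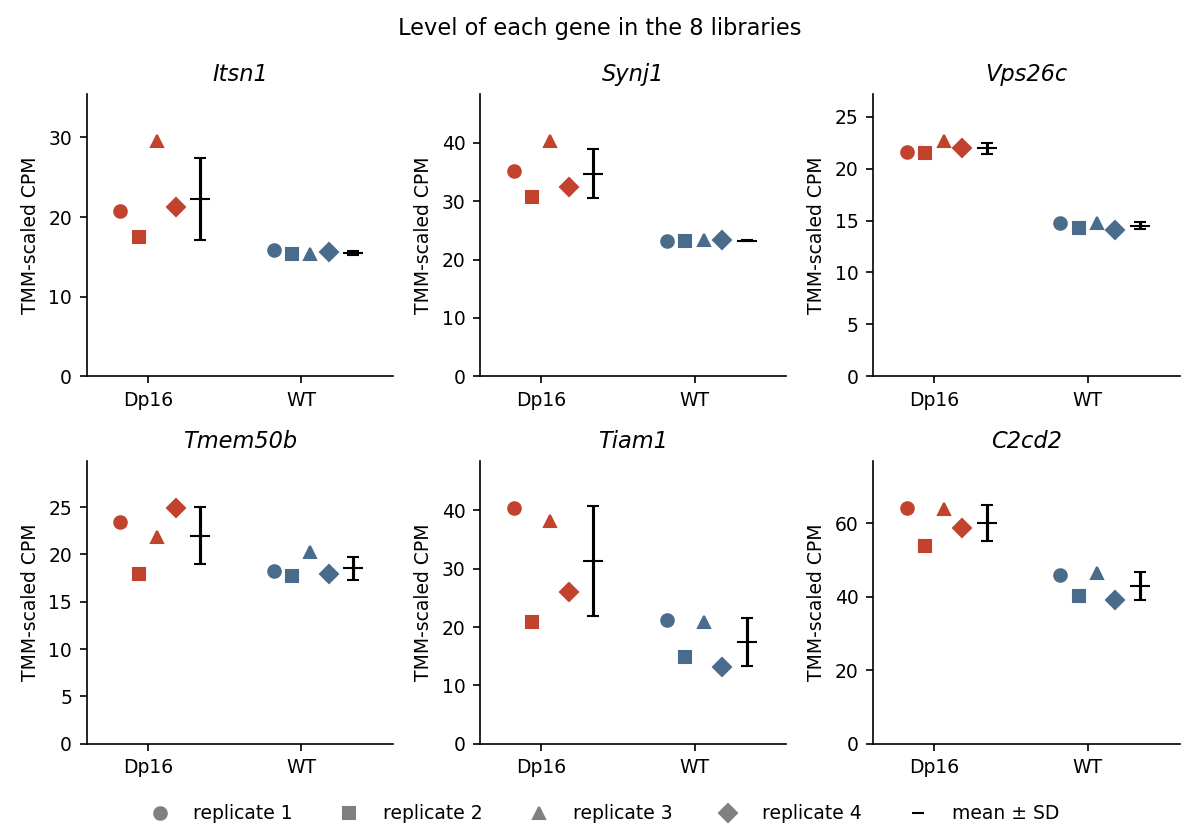
Level of each of the 6 genes, in CPM scaled by TMM on an axis from 0, in the 4 Dp16 libraries (left of each pair) and the 4 WT libraries (right), 1 point per library with the mean and SD of each group. Vps26c, Synj1, C2cd2 and Itsn1 show groups that do not meet, while the groups overlap for Tmem50b and Tiam1.

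Itsn1 (ENSMUSG00000022957, chr16:91729281-91920597, plus strand, 47 merged exons in GENCODE M21) encodes the endocytic scaffold intersectin 1, whose long form also activates Cdc42. Its level was 20.8, 17.5, 29.6 and 21.2 CPM in Dp16 replicates 1 to 4, against 15.8, 15.3, 15.3 and 15.6 CPM in WT replicates 1 to 4. The WT libraries were within a narrow band and the Dp16 libraries were all above it, with replicate 3 the highest of the Dp16 libraries. The means were 22.3 ± 5.15 CPM in Dp16 and 15.5 ± 0.241 CPM in WT (SD, n = 4 each), a log2 fold change of 0.52 (SE 0.143, 95% interval 0.20 to 0.85) or a fold of 1.44. This missed the threshold in edgeR (adjusted p = 0.0909) and in limma-voom (adjusted p = 0.0640) and passed it in DESeq2 (adjusted p = 0.0238). The exact permutation test of the genotype labels on log2 CPM gave p = 0.0286, two-sided, the smallest that 70 splits of 8 libraries can give. Without Dp16 replicate 3 the log2 fold change of Itsn1 was 0.36 (edgeR adjusted p = 0.128), and without Dp16 replicate 2 it was 0.62 (edgeR adjusted p = 0.0490). Dp16 replicate 3 was also the library with the highest summed lymphocyte markers and the highest summed macrophage markers. From highest to lowest, the Dp16 libraries stood in the order 3, 4, 1 and 2 for Itsn1, for Vps26c and for the macrophage sum. The part of either cell type in the Itsn1 values was not tested.

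Synj1 (ENSMUSG00000022973, chr16:90936092-91011308, minus strand, 34 merged exons) encodes the phosphatase that helps to uncoat clathrin vesicles. It had 35.2, 30.8, 40.4 and 32.5 CPM in Dp16 replicates 1 to 4, against 23.1, 23.2, 23.3 and 23.4 CPM in WT. All Dp16 values exceeded all WT values, and the lowest Dp16 library was replicate 2. The WT libraries differed by less than the counting error of their reads alone would give, with a coefficient of variation of 0.535% beside a Poisson value of 2.04%, while the Dp16 libraries varied by 12.1%. Synj1 rose to 34.7 ± 4.19 CPM in Dp16, against 23.3 ± 0.125 CPM in WT (SD, n = 4 each), by 0.58 on the log2 scale (SE 0.0881, 95% interval 0.38 to 0.78), a fold of 1.49 (edgeR adjusted p = 0.0369). DESeq2 (adjusted p = 3.13e-05) and limma-voom (adjusted p = 0.0206) also called it, and the exact permutation p was 0.0286. The edgeR call held without Dp16 replicate 2 or 3 and was lost without any one of the other 6 libraries, Dp16 replicates 1 and 4 and WT replicates 1 to 4, with adjusted p between 0.0526 and 0.118 and log2 fold changes that stayed between 0.56 and 0.60. From highest to lowest, the Dp16 libraries stood in the same order for Synj1 as for the summed lymphocyte markers, replicates 3, 1, 4 and 2. Synj1 was the only gene of the 6 with that order, and the part of those cells in the Synj1 values was not tested.

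Vps26c (ENSMUSG00000022898, chr16:94497783-94526830, minus strand, 8 merged exons) encodes the arrestin-like subunit of Retriever, the complex that returns integrins and other receptors from endosomes to the surface. Its values were 21.6, 21.5, 22.7 and 22.0 CPM in Dp16 replicates 1 to 4, against 14.8, 14.3, 14.8 and 14.1 CPM in WT. The 2 groups were far apart and each was tight, with coefficients of variation of 2.57% in Dp16 and 2.58% in WT, close to the Poisson values of 2.06% and 2.59%. Vps26c rose to 22.0 ± 0.566 CPM in Dp16, against 14.5 ± 0.375 CPM in WT (SD, n = 4 each), by 0.60 on the log2 scale (SE 0.0640, 95% interval 0.46 to 0.74), a fold of 1.52 (edgeR adjusted p = 0.0181). It was called by DESeq2 (adjusted p = 6.96e-13) and limma-voom (adjusted p = 0.0147), with an exact permutation p of 0.0286. The Vps26c fold was 1.49, 1.48, 1.57 and 1.52 over the WT mean in Dp16 replicates 1 to 4. The lowest was replicate 2, which also had the lowest summed lymphocyte and macrophage markers of the Dp16 libraries. The part of those cells in the Vps26c values was not tested. The log2 fold change was 0.58 to 0.61 with any library left out, while the edgeR call was lost without Dp16 replicate 1 (adjusted p = 0.0860), WT replicate 2 (0.0995), WT replicate 3 (0.0669) or WT replicate 4 (0.0507).

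Tmem50b (ENSMUSG00000022964, chr16:91574503-91597800, minus strand, 8 merged exons) had the smallest fold change of the 6 genes. Its level was 23.4, 17.9, 21.8 and 24.9 CPM in Dp16 replicates 1 to 4, against 18.2, 17.7, 20.3 and 17.9 CPM in WT. Dp16 replicate 2 lay among the WT libraries, so the groups overlapped. The means were 22.0 ± 3.02 CPM in Dp16 and 18.5 ± 1.18 CPM in WT (SD, n = 4 each), a log2 fold change of 0.25 (SE 0.107) or a fold of 1.19. This was not called by edgeR (adjusted p = 0.195), DESeq2 (adjusted p = 0.212) or limma-voom (adjusted p = 0.121), and the exact permutation p was 0.114. Tmem50b was the only gene of the 6 whose 95% interval, a fold of 1.00 to 1.40, did not hold 1.5. Against 1.5 the edgeR p was 0.0111, or 0.0765 adjusted over the 127 segment genes, which missed the threshold. Without Dp16 replicate 2 its log2 fold change was 0.33 (edgeR adjusted p = 0.0792).

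Tiam1 (ENSMUSG00000002489, chr16:89787111-90143769, minus strand, 37 merged exons) encodes an exchange factor that loads Rac with GTP. It had 40.4, 20.8, 38.2 and 26.0 CPM in Dp16 replicates 1 to 4, against 21.2, 14.9, 20.8 and 13.1 CPM in WT. In both genotypes the libraries numbered 1 and 3 were higher than those numbered 2 and 4, and Dp16 replicate 2 was within the WT range. The means were 31.3 ± 9.46 CPM in Dp16 and 17.5 ± 4.12 CPM in WT (SD, n = 4 each). Its log2 fold change of 0.84 (SE 0.236, 95% interval 0.31 to 1.37) was the highest of the 6 and also the least precise. Tiam1 was called by DESeq2 (adjusted p = 0.0129) but not by edgeR (adjusted p = 0.0952) or limma-voom (adjusted p = 0.0616), and the exact permutation p was 0.0857. Over the WT mean its fold was 2.31, 1.19, 2.18 and 1.48 in Dp16 replicates 1 to 4. The 2 Dp16 libraries with the most Tiam1, replicates 1 and 3, also had the highest summed lymphocyte markers, and the part of those cells in the Tiam1 values was not tested.

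C2cd2 (ENSMUSG00000045975, chr16:97855209-97962598, minus strand, 18 merged exons) encodes the C2 domain protein and lies 22.3 Mb from the start of Lipi, at the far end of the duplication. Its values were 64.1, 53.7, 63.8 and 58.6 CPM in Dp16 replicates 1 to 4, against 45.8, 40.2, 46.5 and 39.1 CPM in WT. Every Dp16 library was above every WT library, and as for Tiam1 the libraries numbered 1 and 3 were higher in both genotypes. The means were 60.1 ± 4.92 CPM in Dp16 and 42.9 ± 3.78 CPM in WT (SD, n = 4 each), a log2 fold change of 0.49 (SE 0.0881, 95% interval 0.29 to 0.68) or a fold of 1.40. In edgeR it just missed the threshold (adjusted p = 0.0507), while DESeq2 (adjusted p = 0.000630) and limma-voom (adjusted p = 0.0309) called it, with an exact permutation p of 0.0286. C2cd2 was called in edgeR when Dp16 replicate 2 was left out (adjusted p = 0.0308). Of its exon bases, 86 are shared on the same strand with Zbtb21, which is 1.11% of them.

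Dp16 replicate 2 was the lowest Dp16 library for 6 of the 6 genes. It was the lowest for 31.8% of the 88 protein-coding segment genes and for 26.2% of genes outside the segment. The number of the 6 genes that edgeR called was 4 without that library and 2 with all 8. Without Dp16 replicate 3 it was 2, without Dp16 replicate 4 or WT replicate 1 it was 1, and without Dp16 replicate 1 or WT replicate 2, 3 or 4 it was 0. Over all genes, edgeR's count of calls moved with the same libraries, from 0 without Dp16 replicate 1 or WT replicate 2 to 446 without Dp16 replicate 2, against 121 with all 8. DESeq2 called 5 of the 6 genes and 5.82% of its genes as higher, and limma-voom called 3 of the 6 and 1.28% of all genes as higher.

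**Figure D2:**
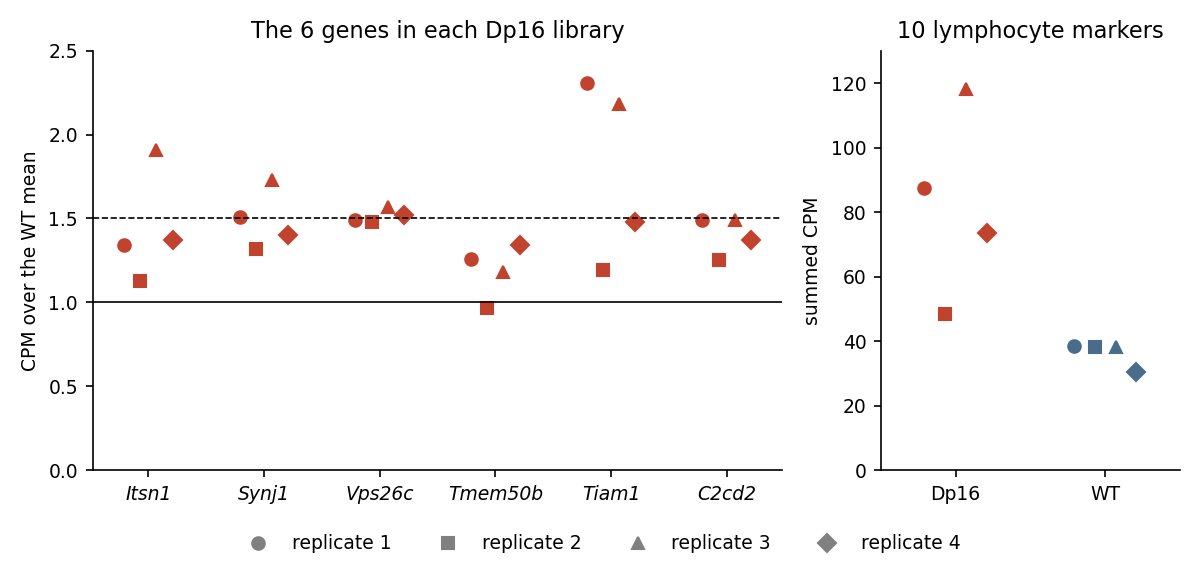
The left panel shows the CPM of each of the 6 genes in each Dp16 library divided by the WT mean, with lines at 1 and at 1.5 and 1 symbol per replicate. The right panel shows the summed CPM of 10 lymphocyte markers per library, Dp16 left of WT. Most of this sum came from Ptprc, a gene of white blood cells in general. Vps26c stays between 1.48 and 1.57, while Tiam1 ranges from 1.19 to 2.31, and Dp16 replicate 2 is lowest for every gene and for the lymphocyte sum among the Dp16 libraries.

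Set against the copy ratio, 5 of the 6 intervals held a fold of 1.5, and 66.9% of the segment's tested genes had such an interval. None of the 6 differed from 1.5 after adjustment over the 127 segment genes by edgeR, where 11.0% of the segment's genes did, and 1 of the 6, Tmem50b, had an unadjusted p under 0.05. limma-voom also found 0 of 6. An interval that holds 1.5 does not show that the fold is 1.5, and that of Tiam1 ran from 1.24 to 2.59. Ranked from high to low among the 88 protein-coding genes tested in the segment, Tiam1 was at place 20, Vps26c at 42, Synj1 at 46, Itsn1 at 48, C2cd2 at 52 and Tmem50b at 75. The quartiles of those 88 log2 fold changes were 0.36 and 0.79, so 4 of the 6 genes lay between them, Tiam1 above and Tmem50b below. Tmem50b and Itsn1, 16.0 and 16.2 Mb from the start of Lipi, are close together on the chromosome, and their log2 fold changes were 0.25 and 0.52.

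**Figure D3:**
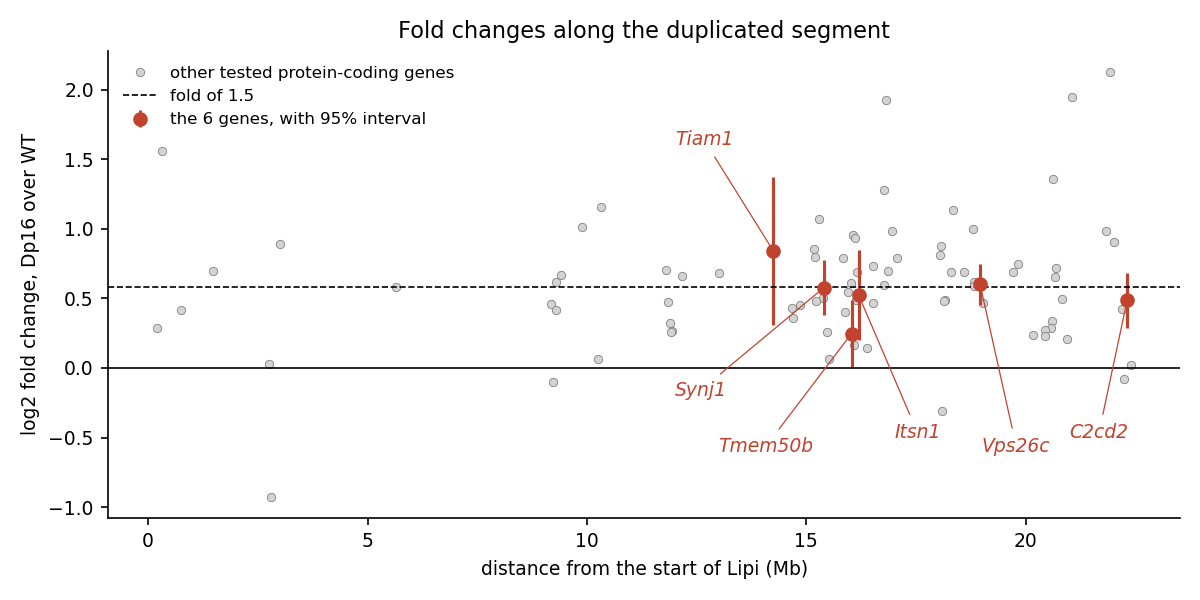
Log2 fold change of Dp16 over WT for the 88 tested protein-coding genes of the duplicated segment by distance from the start of Lipi in Mb, with the 6 genes in red with 95% intervals and a dashed line at a fold of 1.5. The 6 genes lie between 14.2 and 22.3 Mb and among their neighbours, with Tiam1 highest at 0.84 and Tmem50b lowest at 0.25.

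Genes can be compared in level only per length of transcript, here as CPM per kilobase of merged exons. In this unit Tmem50b was the most abundant of the 6, at 8.98 ± 1.24 in Dp16 and 7.57 ± 0.484 in WT (SD, n = 4 each). C2cd2 followed with 7.73 ± 0.633 in Dp16 and 5.52 ± 0.486 in WT, and Vps26c with 5.98 ± 0.154 in Dp16 and 3.95 ± 0.102 in WT. Synj1 stood at 4.29 ± 0.518 in Dp16 and 2.88 ± 0.0154 in WT, and Tiam1 at 3.12 ± 0.942 in Dp16 and 1.74 ± 0.410 in WT. Itsn1 was the lowest, at 0.951 ± 0.220 in Dp16 and 0.661 ± 0.0103 in WT, but its 23425 exon bases are merged from 31 annotated transcripts, which lowers this value for a gene that uses few of them. The order of the 6 genes was the same in both genotypes. In Dp16, the ranges of Tmem50b and C2cd2 overlapped, as did those of Synj1 and Tiam1, and in WT no neighbours in the order overlapped.

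Each of the 6 genes has relatives elsewhere in the genome that are present in 2 copies in both genotypes, and edgeR called 0 of these 7, with 1 at an unadjusted p under 0.05. Their median log2 fold change was 0.00069. Itsn2, the other intersectin, averaged 60.0 ± 2.55 CPM in Dp16 and 61.7 ± 1.32 CPM in WT (log2 fold change -0.041, edgeR adjusted p = 0.701). Synj2, the other synaptojanin, averaged 28.6 ± 2.24 CPM in Dp16 and 26.4 ± 1.15 CPM in WT (0.11, edgeR adjusted p = 0.366). The retromer subunits Vps26a and Vps26b had log2 fold changes of 0.00069 and -0.069 (edgeR adjusted p = 0.997 and 0.690), Tmem50a 0.24 (0.440) and Tiam2 0.23 (0.394). C2cd2l, the lipid transfer protein, was at 8.54, 12.3, 7.82 and 14.3 CPM in Dp16 replicates 1 to 4, against 12.3, 22.0, 16.7 and 21.9 CPM in WT. Those groups overlapped, and its log2 fold change of -0.76 (95% interval -1.30 to -0.23) was not called by edgeR (adjusted p = 0.113) or limma-voom (adjusted p = 0.0686) and was called lower by DESeq2 (adjusted p = 0.0251).

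Taking each gene over its relative within the same library removes what the libraries share in scaling. The log2 ratio of Vps26c to Vps26a averaged -0.57 ± 0.0822 in Dp16 and -1.17 ± 0.0797 in WT (SD, n = 4 each), a difference of 0.60. Synj1 over Synj2 averaged 0.28 ± 0.112 in Dp16 and -0.18 ± 0.0575 in WT, a difference of 0.46. The differences of Itsn1 over Itsn2 (0.54), Vps26c over Vps26b (0.67) and C2cd2 over C2cd2l (1.25) were also positive. In these 5 pairs the groups did not overlap (exact permutation p = 0.0286 each, two-sided, adjusted p = 0.0400 over 7 pairs). The ratios were chosen after the data were seen. The groups of Itsn1, Synj1, Vps26c and C2cd2 already did not overlap on their own, so these p-values are not separate support. With 1 library left out, 35 splits allow no p below 0.0286. The ratios of Synj1 and Vps26c to their relatives kept that p with each library left out. That of Itsn1 had an exact permutation p of 0.0571 without any one of the WT libraries, and that of C2cd2 had 0.0571 without any one of the Dp16 libraries or WT replicate 2 or 4. Tiam1 over Tiam2 differed by 0.58 (exact permutation p = 0.257, adjusted p = 0.300), and Tmem50b over Tmem50a by 0.013 (exact permutation p = 0.971).

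**Figure D4:**
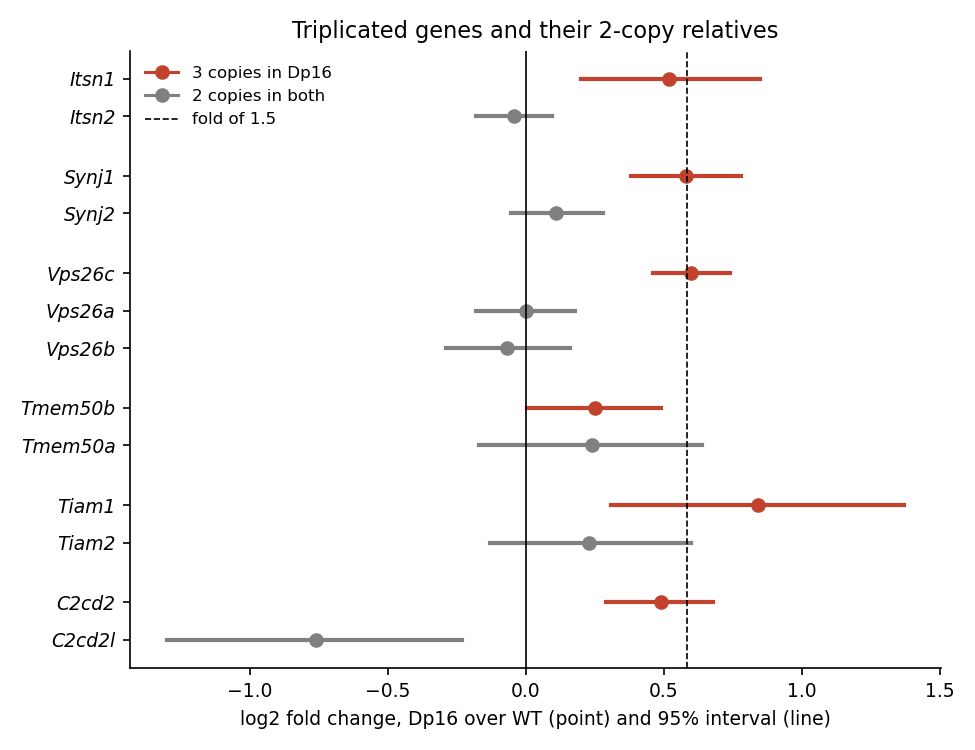
Log2 fold change of Dp16 over WT with 95% intervals for the 6 triplicated genes and their 7 relatives with 2 copies, with lines at 0 and at a fold of 1.5. The 6 triplicated genes lie to the right of 0, while the relatives lie on both sides, from -0.76 for C2cd2l to 0.24 for Tmem50a.

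The protein-coding genes next to each of the 6 on chromosome 16 are also triplicated, and 5 of these 12 neighbours rose by edgeR. Cryzl1, 0.306 kb from Itsn1, rose by 0.69 on the log2 scale (adjusted p = 0.0265). Ttc3 and Dyrk1a, a kinase gene, on either side of Vps26c, rose by 0.62 (adjusted p = 0.0411) and 0.47 (adjusted p = 0.0265). Around Tmem50b, Ifngr2, a subunit of the interferon gamma receptor, rose to 20.7 ± 0.411 CPM in Dp16, against 13.5 ± 1.26 CPM in WT (0.61, edgeR adjusted p = 0.0265), and Dnajc28 to 10.5 ± 0.441 CPM in Dp16, against 5.40 ± 1.43 CPM in WT (0.96, edgeR adjusted p = 0.0456). All 5 calls were lost without any one of Dp16 replicates 1 and 4 and WT replicates 2 and 3. Without WT replicate 4 that of Ifngr2 held, without WT replicate 1 those of Cryzl1 and Dnajc28, and without Dp16 replicate 3 those of Cryzl1, Dyrk1a and Ifngr2. The highest adjusted p among these fits was 0.148 and no log2 fold change was below 0.43.

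The neighbours of C2cd2 had log2 fold changes near 0. Prdm15, 3.36 kb away, averaged 17.7 ± 1.81 CPM in Dp16 and 18.7 ± 0.960 CPM in WT, a log2 fold change of -0.078 (edgeR adjusted p = 0.611). Zbtb21, at the edge of the segment, averaged 15.2 ± 2.14 CPM in Dp16 and 15.0 ± 2.31 CPM in WT, a log2 fold change of 0.02 (edgeR adjusted p = 0.944). Both differed from a fold of 1.5 after adjustment over the segment (edgeR adjusted p = 0.00463 for Prdm15 and 0.0318 for Zbtb21). Within libraries, the log2 ratio of C2cd2 to Prdm15 was higher in Dp16 by 0.57 and that of C2cd2 to Zbtb21 by 0.46, and the ratio of Tmem50b to Dnajc28 was lower by 0.75 (difference of -0.75). In all 3 pairs the groups did not overlap (exact permutation p = 0.0286 each), but none passed after adjustment over 12 pairs (adjusted p = 0.114). For the other 9 pairs the exact permutation p was 0.0571 or more. Cfap298 and Paxbp1 beside Synj1, Atp5o beside Itsn1, and Cldn8 and Sod1 beside Tiam1 had log2 fold changes of 0.50, 0.26, 0.14, 0.68 and 0.43 and were not called by edgeR (adjusted p = 0.0761, 0.338, 0.566, 0.0532 and 0.0507).

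Pathway genes that work with the 6 products, all outside the duplication, were described as 5 lists. Of 45 tested genes for clathrin coats, adaptors, membrane bending and scission, 20 were higher in Dp16 by their mean, and the median log2 fold change was -0.021, against 0.0081 over all genes tested. Calls in either direction made up 0.625% of all genes by edgeR, 10.2% by DESeq2 and 2.05% by limma-voom. In edgeR 1 of them rose and 0 fell, and 14 (31.1%) had an unadjusted p under 0.05, against 24.6% of all genes. Of those 14, 6 were higher and 8 lower in Dp16. DESeq2 called 3 higher and 2 lower, and limma-voom called 1 higher. The gene that rose was Dnajc6, which encodes auxilin, the partner of synaptojanin in taking off the clathrin coat. It had 5.08, 7.52, 5.48 and 6.84 CPM in Dp16 replicates 1 to 4, against 3.91, 3.18, 3.16 and 3.28 CPM in WT. Its groups did not overlap, and its log2 fold change was 0.88 (SE 0.150, edgeR adjusted p = 0.0428). From highest to lowest, its Dp16 libraries stood in the order 2, 4, 3 and 1, and the summed lymphocyte markers in the order 3, 1, 4 and 2. The part of those cells in the Dnajc6 values was not tested. DESeq2 (adjusted p = 3.01e-05) and limma-voom (adjusted p = 0.0416) also called Dnajc6. In edgeR its call held without Dp16 replicate 2 and was lost without any one of the other 7 libraries, Dp16 replicates 1, 3 and 4 and WT replicates 1 to 4, with adjusted p of up to 0.144 and log2 fold changes of at least 0.78 throughout.

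The next list held 40 genes of inositol lipids, the substrates of synaptojanin, mostly kinases and phosphatases, with some of their partners and lipid transfer proteins. Of these 40, 13 had a positive log2 fold change and the median was -0.043. By edgeR 1 rose and 0 fell, and 10 (25.0%) had an unadjusted p under 0.05, 3 higher and 7 lower in Dp16. DESeq2 called 2 higher and 4 lower, and limma-voom called 1 higher. Inpp4b, a phosphatase of such lipids, rose to 10.3, 7.03, 11.3 and 9.14 CPM in Dp16 replicates 1 to 4, against 5.07, 4.55, 4.78 and 2.86 CPM in WT. Its groups did not overlap, with a log2 fold change of 1.13 (SE 0.203, edgeR adjusted p = 0.0490). From highest to lowest, the Dp16 libraries stood in the order 3, 1, 4 and 2, as for the summed lymphocyte markers, whose part in the Inpp4b values was not tested. With relative log expression size factors its edgeR adjusted p was 0.0502. The call held without Dp16 replicate 2 and was lost without any one of Dp16 replicates 1, 3 and 4 and WT replicates 1 to 4, with adjusted p of up to 0.144.

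Of 32 tested genes of Retriever, its CCC and WASH partners, retromer and their sorting nexins, 14 had a log2 fold change above 0 and the median was -0.054. By edgeR 0 were called. An unadjusted p under 0.05 was found for 6 (18.8%), each with a lower mean in Dp16. DESeq2 called 1 of the 32 lower, and limma-voom called 0. Snx17, the sorting nexin that hands cargo to Retriever, averaged 19.7 ± 1.77 CPM in Dp16 and 24.7 ± 1.89 CPM in WT (log2 fold change -0.33, edgeR adjusted p = 0.0910). Commd1, a subunit of the CCC complex, averaged 7.56 ± 0.546 CPM in Dp16 and 9.37 ± 1.07 CPM in WT (-0.31, edgeR adjusted p = 0.131). Neither passed the threshold, although the groups of both genes did not overlap, which held for 14.1% of all genes in either direction.

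For Rac and Cdc42 with their exchange factors, inhibitors and effectors, 29 of 52 tested genes had a positive log2 fold change and the median was 0.013. By edgeR 0 were called, and 12 (23.1%) had an unadjusted p under 0.05, 9 higher and 3 lower in Dp16. DESeq2 called 5 higher and 1 lower, and limma-voom called 1 higher. Prex2, a Rac exchange factor, averaged 15.3 ± 1.16 CPM in Dp16 and 10.9 ± 1.32 CPM in WT (log2 fold change 0.49, edgeR adjusted p = 0.0677). Cyfip2, a subunit of the WAVE complex that Rac switches on, averaged 8.40 ± 1.89 CPM in Dp16 and 4.97 ± 0.891 CPM in WT (0.76, edgeR adjusted p = 0.0792).

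At contacts between the endoplasmic reticulum and the plasma membrane, where the C2cd2 relative C2cd2l works, 11 of 23 tested genes had a positive log2 fold change and the median was -0.021. By edgeR 0 were called, although 11 (47.8%) had an unadjusted p under 0.05, 4 higher and 7 lower in Dp16. DESeq2 called 2 higher and 3 lower, and limma-voom 1 higher and 1 lower. Pitpnm3, a lipid transfer protein, averaged 5.12 ± 0.298 CPM in Dp16 and 3.03 ± 0.706 CPM in WT (log2 fold change 0.76, edgeR adjusted p = 0.0667). Orai1, the plasma membrane channel of store-operated calcium entry, which fluid secretion in salivary glands depends on, averaged 5.25 ± 0.380 CPM in Dp16 and 7.05 ± 0.462 CPM in WT (-0.43, edgeR adjusted p = 0.0709). Neither of the 2 passed the threshold in edgeR.

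**Figure D5:**
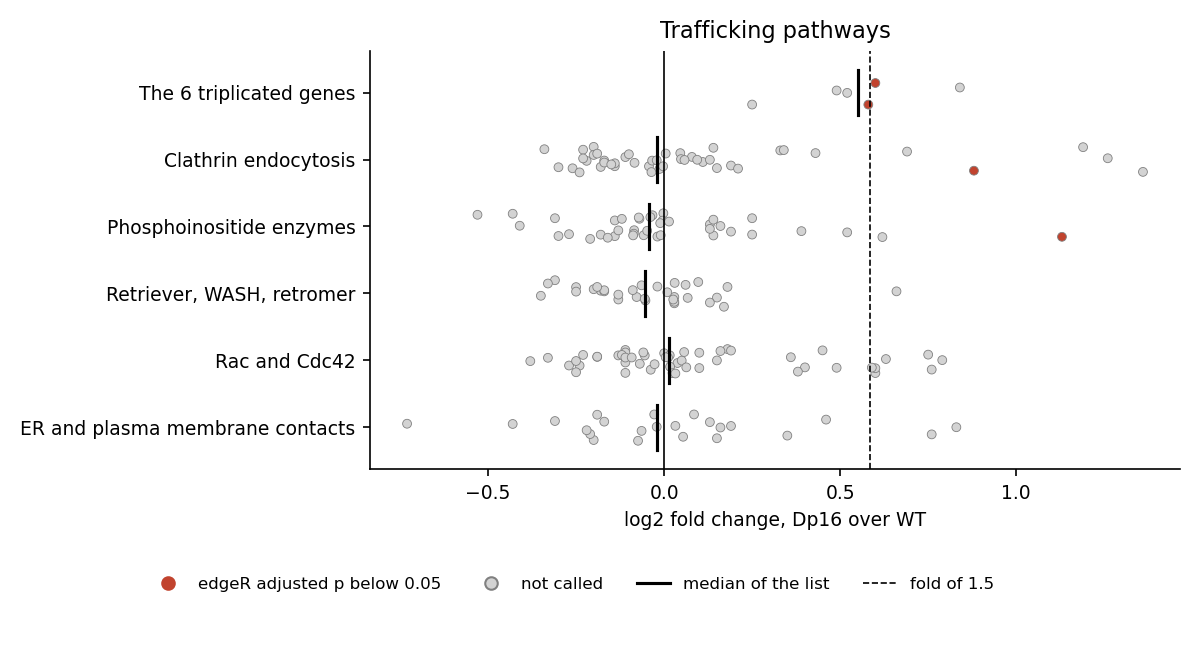
Log2 fold change of Dp16 over WT for the 6 triplicated genes and for 5 lists of genes outside the duplication, 1 point per gene, with the median of each list as a bar and a dashed line at a fold of 1.5. The median of the 6 genes is 0.55 and those of the 5 lists lie between -0.054 and 0.013, with Dnajc6 and Inpp4b the only genes of these lists called by edgeR.

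Among themselves, the 6 genes differed in how they varied over the 8 libraries. The measure was the root mean square difference between log2 CPM profiles centred on their means, so that 0 means the same profile. Synj1 and Vps26c were the closest pair (0.0913), followed by Vps26c and C2cd2 (0.102). Tmem50b and Tiam1 were the farthest apart (0.416), and all 5 pairs with Tiam1 differed by at least 0.299. The same measure over 11818 protein-coding genes outside the segment gave Dock11 (0.0624) and Atp8a1 (0.0689) as the nearest to Itsn1, and Esam (0.0692) and Gpr157 (0.0738) as the nearest to Synj1. Fut8 (0.0830) and Adh1 (0.0893) were nearest to Vps26c, S100a13 (0.0740) and Lzts3 (0.0741) to Tmem50b, Spata6 (0.0700) and Lax1 (0.132) to Tiam1, and Tctn1 (0.0662) and Maml2 (0.0880) to C2cd2. Fut8, a fucosyltransferase, and Adh1, an alcohol dehydrogenase, were called by edgeR (adjusted p = 0.0306 and 0.0388), since a gene with a profile like that of Vps26c must differ between the groups as Vps26c does. The likeness is over 8 libraries of 2 genotypes and is a description only.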

How the data were processed

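RNA sequencing libraries of 4 Dp16 and 4 WT submandibular glands were analysed from the deposited whole-number read counts per Ensembl gene, 1 table per library. Per the labels' protocols, RNA was prepared with the miRNeasy kit and sequenced from stranded, rRNA-depleted TruSeq libraries. Per the submitters' processing notes, FastQC, STAR, HTSeq and DESeq2 were used with the build GRCm38. The sources used here give no versions, strand setting or annotation release, so reads of a gene and an antisense partner may not be separated. Of the exon bases of Synj1, 60 (0.742%) overlap the antisense gene 4930404I05Rik, which had 0 to 5 reads per library. Rows that name no gene, 58.14% to 65.4% of all reads per library, were left out. Names and coordinates came from GENCODE M21, which matched 54809 of 54838 genes. The segment, Lipi to Zbtb21, was chr16:75540514-97962622.

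Counts were filtered with filterByExpr, scaled by TMM and tested with glmQLFTest of edgeR 4.0.16 in R 4.3.3 without covariates. Benjamini-Hochberg adjustment ran over 19358 genes, with calls at an adjusted p under 0.05. Log2 CPM used a prior count of 2. A fold of 1.5 was tested with an offset in the same fit, adjusted over the 127 segment genes. Single values were compared by an exact two-sided permutation test. The fits were also tested on simulated data with known changes, up or down. Of 67 genes changed by a fold of 1.5, edgeR called 17.9%, limma-voom 16.4% and DESeq2 56.7%. False calls were 3 of 126 for edgeR, 1 of 122 for limma-voom and 56 of 220 for DESeq2. A gene that edgeR did not call may therefore still differ by such a fold, and DESeq2 calls are less strict. In every pair of replicates the chi-square per degree of freedom was 84.3 or more, above sampling noise. The alternatives were DESeq2 1.42.0, limma-voom with quality weights (limma 3.58.1), relative log expression size factors, TMM without the 1% most abundant genes, no filter, a minimum of 1 CPM in 4 libraries, the replicate number as a block, and each library left out in turn. The within-library ratios were chosen after seeing the data. The 6 genes, the gene and marker lists and the rule for named genes were chosen with earlier results of these data known. That rule takes the 6 genes, their relatives and nearest neighbours whatever their values, the called genes of each list (otherwise the 2 with the smallest p), and the 2 nearest profiles for each of the 6.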

Additional observations from a re-analysis of the deposited data

Results flagged for a closer look

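The 4 values of a group were examined for 1 library far from the others in 70 groups of genes named here, where chance gives about 1 in 20. In Dnajc6, WT replicate 1 was at 3.91 CPM and the other 3 WT libraries were between 3.16 and 3.28 CPM. In Mx1, an interferon-induced gene of the segment with the highest log2 fold change among its 88 protein-coding genes (2.13, edgeR adjusted p = 0.104), Dp16 replicate 3 was at 21.1 CPM and the other 3 Dp16 libraries were between 2.62 and 3.78 CPM. None of the 6 trafficking genes had such a library in either group.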

How the results depend on the processing

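All 6 genes kept a positive log2 fold change under every alternative run. Scaling moved the median of genes outside the segment by less than 0.03. Of the 6 genes, DESeq2 called 5 and edgeR with the replicate block 4, against 2 in the reported fit, and with 1 library left out 0 to 4 were called. The count of the 6 genes that differed from a fold of 1.5 was 0 in each edgeR fit and in limma-voom, and DESeq2 was not run against 1.5. DESeq2 called 1 of the 7 relatives, 5 clathrin genes, 6 inositol lipid genes, 1 gene of the Retriever and retromer list, 6 Rac and Cdc42 genes and 5 contact genes. limma-voom called 1 Rac and Cdc42 gene and 2 contact genes. With relative log expression size factors 0 inositol lipid genes were called. With the replicate block 1 relative, 2 clathrin genes, 2 inositol lipid genes, 2 Rac and Cdc42 genes and 2 contact genes were called. Over all genes the count was 1991 by DESeq2, 396 by limma-voom, 223 without a filter and 776 with the block, against 121. With 1 library left out it was 0 to 446, with 0 to 2 clathrin genes, 0 to 1 inositol lipid genes and 0 to 1 Rac and Cdc42 genes. The causes were not tested. Same-numbered Dp16 and WT libraries deviated together with correlations of 0.191, 0.129, 0.0777 and 0.105. As 1 of these was under 0.1 and not every library correlated best with its own number, the numbers were not taken to pair the libraries. With the block, Tiam1 and C2cd2 had an edgeR adjusted p of 0.0358 each.

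The sign of Vps26a turned to -0.0083 by DESeq2, -0.003 with relative log expression size factors and -0.0006 without a filter. With 1 library left out, log2 fold changes were -0.05 to 0.035 for Vps26a and -0.078 to 0.09 for Zbtb21. The differences in log2 ratio were then -0.11 to 0.15 for Tmem50b over Tmem50a, -0.044 to 0.19 for Synj1 over Cfap298, -0.058 to 0.049 for Vps26c over Ttc3 and -0.059 to 0.33 for Tiam1 over Cldn8. None of these had passed a test.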

Other observations

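Some genes of the same pathways that are best known from blood cells were named after their values were seen. Dock2, a Rac exchange factor of lymphocytes, had 26.4, 15.2, 38.5 and 23.4 CPM in Dp16 replicates 1 to 4, against 15.1, 15.7, 15.2 and 13.9 CPM in WT, with Dp16 replicate 3 highest and replicate 2 within the WT range. Its log2 fold change was 0.79 (edgeR adjusted p = 0.102). Vav1, another exchange factor of such cells, averaged 6.38 ± 2.36 CPM in Dp16 and 3.79 ± 0.301 CPM in WT (SD, n = 4 each), a log2 fold change of 0.75 (edgeR adjusted p = 0.107). Inpp5d, an inositol lipid phosphatase of blood cells, averaged 14.8 ± 4.37 CPM in Dp16 and 9.57 ± 0.739 CPM in WT (0.62, edgeR adjusted p = 0.104). Rac2 and Arhgdib had log2 fold changes of 0.63 and 0.59 (edgeR adjusted p = 0.218 and 0.176). None of these 5 genes was called by edgeR, while DESeq2 called Dock2, Vav1 and Inpp5d (adjusted p = 0.0187, 0.0248 and 0.0282). Each of the 5 was highest in Dp16 replicate 3 and lowest among Dp16 libraries in replicate 2, as were the summed lymphocyte markers. The part of those cells in these values was not tested.

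In the clathrin list, Fcho1, an early pit protein, averaged 1.03 ± 0.402 CPM in Dp16 and 0.401 ± 0.0833 CPM in WT (SD, n = 4 each), with groups that did not overlap and a log2 fold change of 1.36 (edgeR adjusted p = 0.0695). In the inositol lipid list, Mtmr4, an endosomal phosphatase, averaged 29.0 ± 4.79 CPM in Dp16 and 41.7 ± 4.90 CPM in WT, also without overlap (-0.53, edgeR adjusted p = 0.0766). Pitpnm2, a lipid transfer protein, averaged 20.2 ± 7.27 CPM in Dp16 and 33.5 ± 10.5 CPM in WT (-0.73, edgeR adjusted p = 0.170). These 3 genes were also named after their values were seen.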
